A study of Homo sapiens with 4 samples.

Results

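The genes described here write, read and erase cytosine methylation in DNA. They are 9 genes (DNMT1, DNMT3A, DNMT3B, TET1, TET2, TET3, UHRF2, MBD2 and HELLS) among the 57773 gene IDs listed in the count tables, matched by symbol. RNA was sequenced from MIA-PaCa2, an established human pancreatic cancer cell line, in 2 untreated libraries and 2 libraries resistant to AMG510 (sotorasib), a covalent small-molecule cancer drug. Resistance was selected over 2 months by raising the dose to 5 µM, and all 4 libraries share the same line and the same serum-containing medium. For resistant replicate 2 the treatment tag gives AMG511, although AMG510 stands in its title and in the design. The design describes the replicates as separate cell populations, 2 resistant and 2 untreated, but not whether the resistant ones were selected apart, nor is it said whether the drug was present at harvest. The p-values measure the spread between these populations of 1 line.

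DNA methylation is copied at each round of replication. DNMT1 is the maintenance methyltransferase, which methylates the newly made strand, and HELLS is a chromatin remodeller that opens nucleosomes for it. DNMT3A and DNMT3B are the de novo methyltransferases, which set new marks. The TET enzymes oxidise methylcytosine, and base excision repair then replaces the oxidised base. UHRF2 is a relative of UHRF1, the protein that brings DNMT1 to newly replicated DNA, and it binds oxidised methylcytosine. MBD2 binds methylated CpG sites and recruits the NuRD repressor complex. In tumours, DNA methylation holds many germline and other tissue-restricted genes silent.

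Both maintenance genes were lower in resistant cells. DNMT1 was 1.96-fold and HELLS 2.16-fold lower, and the other 7 genes, the de novo methyltransferases and all TET enzymes among them, did not pass the test. Calls rest on edgeR's quasi-likelihood test over 16090 tested genes, with Benjamini-Hochberg adjustment and a threshold of 0.05. By that rule 34.0% of all tested genes were called in either direction, and 17.4% were called lower. All 9 genes had enough counts to be tested, of which 2 were called, both lower. The share of 2 in 9 is below the 34.0% called either way and above the 17.4% called lower. The count alone does not set these genes apart. The median log2 fold change was 0.07 over the 9 genes and −0.01 over all tested genes.

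The sequence at or just before the start of both lowered genes holds letters of the E2F site, the element through which E2F factors time transcription of S phase genes, and these promoters are shown for that reason. The search covered TTTCCCGC, TTTCGCGC, TTTGCCGC and TTTGGCGC on both strands in RefSeq's promoter windows (build GRCh38.p14, 250 bases before to 50 after each start), in which all 9 genes were found. Of the 35116 windows of this length 3.31% held at least 1 of these forms. Shown are the 100 bases before the start and the 20 after it, in the gene's direction, with the E2F letters in capitals. DNMT1 lies at chr19:10194934-10195053 (minus strand), HELLS at chr10:94545688-94545807 (plus strand) and UHRF2, which did not pass the test and had no E2F match, at chr9:6413099-6413218 (plus strand).
DNMT1: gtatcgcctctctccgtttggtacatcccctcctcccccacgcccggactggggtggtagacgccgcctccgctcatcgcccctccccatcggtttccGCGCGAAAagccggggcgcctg
HELLS: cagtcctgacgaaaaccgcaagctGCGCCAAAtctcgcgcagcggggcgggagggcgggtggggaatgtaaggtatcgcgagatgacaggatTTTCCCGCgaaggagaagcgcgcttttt
UHRF2: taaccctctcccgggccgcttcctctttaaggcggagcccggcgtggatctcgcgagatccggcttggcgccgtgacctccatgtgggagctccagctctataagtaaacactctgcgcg
DNMT1 held 1 E2F match, whose first base lies 2 bases before the start, so that the match spans the start. HELLS held 2, which begin 76 and 8 bases before the start. None of the windows of the other 7 genes held these letters. Letters of the NRF1 (GCGCATGC), ETS (CCGGAAGT) and SP1 (GGGGCGGG) sites were searched in the same windows. DNMT1 also held the NRF1 letters, and no window of the 9 genes held the ETS letters. The SP1 letters, found in 22.6% of all windows, stood at HELLS, which was lower. They also stood at DNMT3A, TET2, TET3, UHRF2 and MBD2, which did not pass. In 300 bases DNMT1 held 30 CpG (more than 77.6% of windows), HELLS 22 (62.3%) and UHRF2 26 (69.9%). MBD2 held 32 (81.1%) and DNMT3B 3. Among genes with several windows, the highest count was 46 in DNMT3A, 45 in TET3, 35 in TET2 and 11 in TET1. DNMT1 and HELLS were thus not the richest in CpG of the 9 genes. A match describes these letters alone and is no evidence that a factor binds there.

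Each library was deep enough to count all 9 genes, with expected counts summing to between 30146559 and 38052558. Levels are given as CPM, counts scaled to the size of each library. DNMT1 stood at 321 and 263 CPM in untreated replicates 1 and 2 and at 135 and 164 CPM in resistant replicates 1 and 2. The groups did not overlap, and the higher library of each group was 1.22 times the lower one. The mean went from 292 ± 41.1 CPM to 149 ± 20.6 CPM (SD, n = 2). Its log2 fold change was −0.97 with an SE of 0.18 (adjusted p = 0.00267). Of all tested genes 10.3% had a lower log2 fold change. In bulk libraries fewer cells of a type (or of a cell cycle phase) and less RNA per cell cannot be told apart.

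HELLS stood at 50.9 and 51.3 CPM in the untreated libraries and at 20.4 and 27.0 CPM in the resistant ones. The untreated values were nearly equal, and resistant replicate 2 was 1.33 times replicate 1. The mean of HELLS fell from 51.1 ± 0.328 to 23.7 ± 4.68 CPM, with a log2 fold change of −1.11 and an SE of 0.19 (adjusted p = 0.00173). TBC1D12, a gene that overlaps HELLS on the same strand, had 33.4% of the HELLS count, so the HELLS value is uncertain to the extent that reads were shared. The ratio of HELLS to DNMT1 was 0.158 and 0.195 in untreated and 0.151 and 0.165 in resistant libraries, so the ranges of this ratio overlapped.

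**Figure D1:**
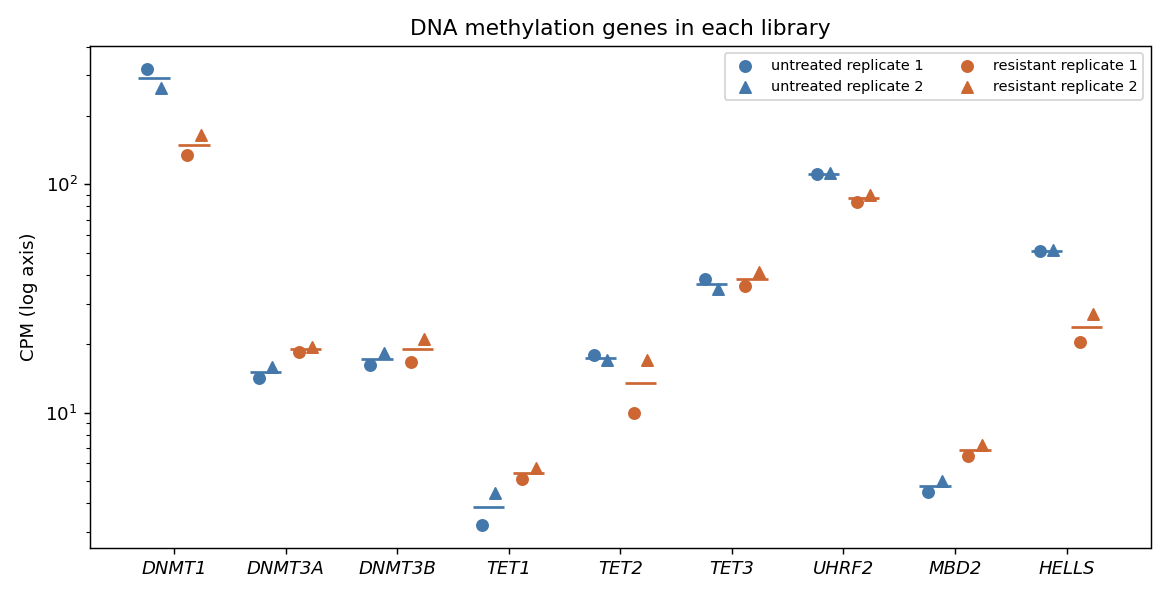
CPM on a log axis for the 9 genes in each library, with circles for replicate 1, triangles for replicate 2 and lines at the group means (blue untreated, orange resistant). DNMT1 (292 against 149 CPM) and HELLS (51.1 against 23.7 CPM) are the genes whose resistant values lie far below the untreated ones.

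The de novo methyltransferases did not pass. DNMT3A stood at 14.1 and 15.8 CPM in untreated cells and at 18.4 and 19.4 CPM in resistant cells. Its groups did not overlap, as in 70.9% of all tested genes, but the difference missed the threshold (log2 fold change 0.33, 95% interval −0.12 to 0.79, adjusted p = 0.238). DNMT3B stood at 16.2 and 18.2 CPM in untreated cells and at 16.7 and 21.1 CPM in resistant cells, and the groups overlapped. Its log2 fold change was 0.13 (interval −0.34 to 0.61, adjusted p = 0.662), and −0.04 without resistant replicate 2. The intervals of both genes exclude a fall as large as the 0.97 measured for DNMT1.

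The 3 methyltransferases therefore stood in other proportions to each other. DNMT1 had 22.7 and 16.6 times the CPM of DNMT3A in the untreated libraries and 7.34 and 8.43 times in the resistant ones. Against DNMT3B the ratio was 19.8 and 14.5 in untreated and 8.05 and 7.78 in resistant libraries. Neither ratio overlapped between the groups, and the log2 ratios differed by −1.30 and −1.10. An exact two-sided permutation test over samples gave p = 0.333 for each ratio, the smallest p that 2 against 2 libraries allow. The ratio of DNMT3A to DNMT3B was 0.870 and 0.871 in untreated and 1.10 and 0.923 in resistant libraries.

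Levels of different genes were compared per kilobase of annotated exon. On this scale DNMT1 made up 87.5% and 83.7% of the 3 methyltransferases in the untreated libraries and 72.8% and 73.1% in the resistant ones. DNMT3B made up 9.36% and 12.2% in untreated and 19.1% and 19.9% in resistant libraries, and DNMT3A between 3.14% and 4.11% against 7.06% and 8.08%. DNMT1 thus remained the most abundant of the 3 in each library. Without division by length DNMT1 held 91.4% of the methyltransferase counts in untreated replicate 1 (95% Wilson interval 90.9% to 91.8%) and 79.3% in resistant replicate 1 (78.2% to 80.4%). Such intervals cover counting error only.

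**Figure D2:**
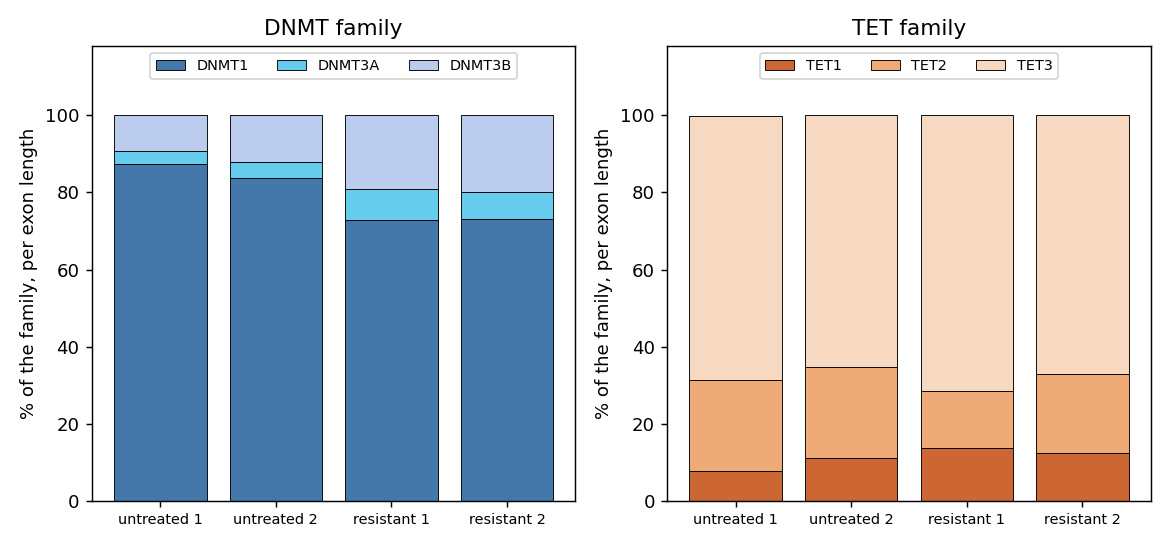
Share of each gene in its family in each library, as a percent of CPM per kilobase of exon, for the methyltransferases (left) and the TET enzymes (right). The DNMT1 part is 87.5% and 83.7% in untreated and 72.8% and 73.1% in resistant libraries, and TET3 is the largest TET part in each bar.

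None of the TET enzymes passed. TET3, the TET gene with the highest level per length here, stood at 38.3 and 34.9 CPM in untreated cells and at 35.7 and 41.2 CPM in resistant cells. The groups overlapped (log2 fold change 0.07, interval −0.31 to 0.45, adjusted p = 0.782), and the sign turned without untreated replicate 2 (−0.01) or resistant replicate 2 (−0.04). TET2 stood at 17.8 and 17.0 CPM in untreated cells and at 9.97 and 17.0 CPM in resistant cells, so that resistant replicate 1 alone was low. Its log2 fold change was −0.36 (interval −0.95 to 0.22, adjusted p = 0.317). It was −0.80 without resistant replicate 2, where it passed (adjusted p = 0.0474), and −0.02 without resistant replicate 1. The difference in TET2 thus rests on 1 library, and the resistant libraries were 1.70-fold apart.

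TET1 was the least abundant TET gene, with 3.22 and 4.46 CPM in untreated cells and 5.14 and 5.71 CPM in resistant cells. The groups did not overlap, but with 119 to 193 counts a library the interval was wide (log2 fold change 0.50, interval −0.23 to 1.23, adjusted p = 0.272). COX20P1, a pseudogene inside TET1 on the same strand, had 11.8% of its count. Per length TET3 made up 65.3% to 68.6% of the TET genes in untreated and 67.1% to 71.5% in resistant libraries. TET2 made up 23.7% in each untreated library and 14.9% and 20.6% in the resistant ones, and TET1 between 7.63% and 11.0% against 12.3% and 13.6%.

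Of the readers, UHRF2 stood at 111 and 112 CPM in untreated cells and at 83.9 and 90.1 CPM in resistant cells. The groups did not overlap and the libraries of each group lay close together (1.01 and 1.07 times apart), but the adjusted p missed the threshold (log2 fold change −0.36, SE 0.15, interval −0.69 to −0.02, adjusted p = 0.0925). MBD2 was low, at 4.47 and 5.02 CPM in untreated cells and at 6.45 and 7.19 CPM in resistant cells (log2 fold change 0.52, interval −0.13 to 1.18, adjusted p = 0.199). Its groups did not overlap. In all, 6 of the 9 genes had groups that did not overlap, 3 higher (DNMT3A, TET1, MBD2) and 3 lower (DNMT1, UHRF2, HELLS). Among all tested genes 70.9% did not overlap, 34.6% higher and 36.3% lower.

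Per kilobase of exon, the order in untreated cells was DNMT1 (29.8 ± 4.2 CPM per kb, SD, n = 2), UHRF2 (11.2 ± 0.0572), HELLS (5.03 ± 0.0323), DNMT3B (3.72 ± 0.297), TET3 (2.98 ± 0.196), DNMT3A (1.25 ± 0.1), TET2 (1.05 ± 0.0344), MBD2 (0.817 ± 0.0675) and TET1 (0.414 ± 0.0943). In resistant cells DNMT1 (15.2 ± 2.10) and UHRF2 (8.77 ± 0.442) still led. HELLS, at 2.33 ± 0.461, then stood below DNMT3B (4.08 ± 0.659) and TET3 (3.13 ± 0.316). The remaining genes were DNMT3A (1.57 ± 0.0628), MBD2 (1.17 ± 0.0904), TET2 (0.818 ± 0.300) and TET1 (0.584 ± 0.0437). This order depends on the length used. With the longest transcript in place of all exons, resistant HELLS (4.75 ± 0.938 CPM per kb) stood above DNMT3B (4.36 ± 0.704) and TET3 (3.37 ± 0.34), though its gap to DNMT3B was within their spread, and untreated TET2 (1.71) stood above DNMT3A (1.58). Per kilobase of all exons in the resistant libraries, MBD2 at 1.11 and 1.24 and TET2 at 0.605 and 1.03 CPM per kb were neighbours whose gap was close to the spread of TET2.

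**Figure D3:**
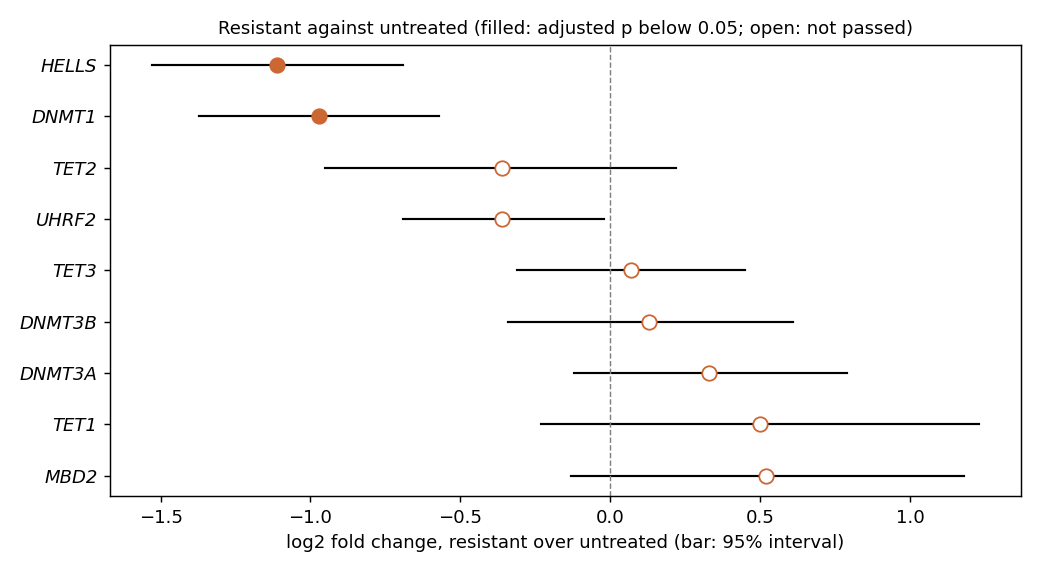
Log2 fold change of resistant over untreated libraries with its 95% interval for each of the 9 genes, filled where the adjusted p was below 0.05. HELLS (−1.11) and DNMT1 (−0.97) are filled, and the intervals of the other genes except UHRF2 (−0.69 to −0.02) include 0.

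The change of DNMT1 and HELLS was set beside that of their neighbours on the chromosome, the 10 tested genes on either side in gene order. The 20 neighbours of DNMT1 on chromosome 19 had a median log2 fold change of 0.24, with 3 higher and 3 lower. Those of HELLS on chromosome 10 had a median of −0.25, with 2 higher and 5 lower. The neighbours of DNMT3B on chromosome 20 had a median of 0.30. Those of MBD2 on chromosome 18 had a median of −0.30, and those of TET3 on chromosome 2 one of −0.33, with 7 lower in each. The medians around DNMT1, MBD2, TET3, UHRF2 (0.16) and TET1 (−0.06) lay on the other side of 0 from the gene itself. TET3 itself lay near 0 (0.07).

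Other writers and factors that target methylation were lower or did not pass. UHRF1 had no ID matched by symbol and is not analysed here. The shares over all tested genes were 17.4% called lower and 34.0% called either way. Of 21 tested genes of this list 9 were called lower, 0 higher and 12 did not pass, with a median log2 fold change of −0.47. The count was 4 without untreated replicate 1 or without resistant replicate 1. PCNA, the sliding clamp that holds DNMT1 at the replication fork, stood at 196 and 130.1 CPM in untreated cells and at 25.9 and 41.6 CPM in resistant cells (log2 fold change −2.27, SE 0.28, adjusted p = 9.11e-04). LIG1, the ligase that seals Okazaki fragments, stood at 59.1 and 55.9 CPM in untreated cells and at 15.6 and 23.3 CPM in resistant cells (−1.56, adjusted p = 5.11e-04). USP7, a deubiquitinase that stabilises DNMT1 and UHRF1, stood at 179 and 157 CPM in untreated cells and at 75.2 and 73.2 CPM in resistant cells (−1.18, adjusted p = 5.07e-04). In these 3 genes each resistant library lay well below both untreated ones.

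HELLS acts together with CDCA7, the protein that activates its remodelling activity, and ZBTB24, a zinc finger protein that induces CDCA7. Both were chosen after their values were seen. CDCA7 stood at 164 and 130.4 CPM in untreated cells and at 92.4 and 95.7 CPM in resistant cells (−0.64, adjusted p = 0.0141), and was not called without untreated replicate 1 (adjusted p = 0.142) or resistant replicate 1 (adjusted p = 0.0577). ZBTB24 fell from 25.9 ± 3.12 CPM to 15.1 ± 2.36 CPM (−0.78, adjusted p = 0.0167), a call that also ended without either of those libraries (adjusted p = 0.133 and 0.0897). ZBTB24 is uncertain, since it overlaps MICAL1 on the same strand. CDCA7L, a paralog of CDCA7, fell by 0.68 (adjusted p = 0.0123), and was not called without untreated replicate 2 (adjusted p = 0.0545) or resistant replicate 1 (adjusted p = 0.0930). NSD2 and NSD1, which methylate histone H3 at lysine 36, the mark that recruits DNMT3A, did not pass (−0.23, adjusted p = 0.272, and −0.47, adjusted p = 0.0538). NSD1 lay close to the threshold, and passed without resistant replicate 2 (adjusted p = 0.0388), with a replicate block (0.0438), with DESeq2 (0.0441) and with limma-voom (0.0473).

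Replication genes of S phase, a list set beside DNMT1 and HELLS, were lower in 24 of 26 tested genes and higher in 0. Their median log2 fold change was −1.21. Of all tested genes 17.4% were called lower. RFC3, a subunit of the clamp loader, had a log2 fold change of −2.25 (adjusted p = 8.90e-05) and CDC6, which licenses origins, one of −2.12 (adjusted p = 2.93e-04). CHAF1A and CHAF1B, the chromatin assembly factor subunits that PCNA recruits, fell by 1.41 and 1.22, though both overlap another expressed gene. RRM1 (−0.47, adjusted p = 0.0726) and CDT1 (0.08, adjusted p = 0.750) did not pass, and RRM1 did without resistant replicate 2 (−0.73, adjusted p = 0.0142) or with no filter (adjusted p = 0.0448). Promoter windows of 13 of the 23 replication genes found in the table held the E2F letters given above, against 3.99% of the 27305 genes in it. Among the other writers, 5 of 20 genes held them. Of these CDCA7, LIG1 and PCNA were called lower, NSD2 did not pass and UHRF1 was not tested. The letters did not follow the calls throughout. Of the replication genes 12 of 13 with the letters and 9 of 10 without them were lower, and CDT1, which did not pass, held them. They were also found at ZBTB4, which was higher, and at AHCY, which did not pass, but not at USP7, CDCA7L or ZBTB24, which were lower.

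Other genes of the MBD family, or listed as methyl-CpG readers, were higher or did not pass. Of 10 tested genes 4 were higher and 0 lower, with a median of −0.03. A place in this list does not show that a protein binds methylated CpG, which was not measured here. Among all tested genes 16.6% were called higher and 34.0% either way. ZBTB4, a zinc finger repressor that binds methylated CpG, stood at 100.5 and 109 CPM in untreated cells and at 204 and 152 CPM in resistant cells (0.76, SE 0.18, adjusted p = 0.00882). MBD5, MBD6 and MBD4, the last a glycosylase that removes thymine at CpG sites, had log2 fold changes of 0.78, 0.57 and 0.46 (adjusted p = 0.0165, 0.0303 and 0.0488). Leaving out untreated replicate 1 left 0 calls in the list, leaving out resistant replicate 1 left 1, and leaving out replicate 2 of either group left 2. ZBTB4 was not called without untreated replicate 1 (adjusted p = 0.0514) or resistant replicate 1 (adjusted p = 0.0682), and MBD4 was not called without any 1 of the 4 libraries (adjusted p up to 0.190). The MBD4 call also ended with no filter (adjusted p = 0.0565), a replicate block (0.0598), DESeq2 (0.0532), limma-voom (0.0515) and the newer edgeR form (0.0507). MBD4, MBD5 and MBD6 also overlap expressed genes on the opposite strand, and their values are uncertain. MBD3, the NuRD subunit related to MBD2, did not pass (−0.15, adjusted p = 0.598), nor did ZBTB38 (−0.03, adjusted p = 0.897), and both signs turned when 1 library was left out. Both overlap a gene on the same strand with a far lower count.

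Of the genes that finish demethylation or control TET activity 6 of 19 tested were lower, 0 higher and 13 did not pass, with a median of −0.17. Over all tested genes 17.4% were called lower, 16.6% higher and 34.0% either way. The share called either way is thus close to that of all tested genes, but all 6 calls were lower. The list was not tested against these shares. NTHL1, a glycosylase for oxidised bases, had a log2 fold change of −1.32 (adjusted p = 9.74e-04), but is uncertain because it overlaps TSC2. PARP1, the sensor of strand breaks, fell from 434 ± 13.2 CPM to 234 ± 38.9 CPM (−0.89, adjusted p = 0.00351). SAMHD1, which hydrolyses deoxynucleotides, fell by 0.84 (adjusted p = 0.00368), and APEX1, the endonuclease that cuts at abasic sites, by 0.81 (adjusted p = 0.00421, with an overlap with PIP4P1). TDG, the glycosylase that removes the bases TET enzymes make, was chosen for that role after its value was seen and did not pass, at 28.8 and 21.3 CPM in untreated cells and 24.8 and 29 CPM in resistant cells. OGT, the sugar transferase that binds TET proteins (0.37, adjusted p = 0.121), and IDH1, which makes the TET cofactor 2-oxoglutarate (0.22, adjusted p = 0.300), did not pass.

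Genes that supply the methyl donor S-adenosylmethionine were called in both directions. Of 17 tested genes 2 were higher, 5 lower and 10 did not pass, with a median of −0.07, and 4 were called without untreated replicate 1. Over all tested genes 16.6% were called higher, 17.4% lower and 34.0% either way, and the list was not tested against these shares. MTRR, which reactivates methionine synthase, had a log2 fold change of −1.20 (adjusted p = 7.42e-04), and MTHFD1, a folate enzyme, one of −1.06 (adjusted p = 0.00108). SHMT2, the mitochondrial enzyme that takes a carbon from serine, fell from 193 ± 8.28 CPM to 112 ± 5.21 CPM (−0.79, adjusted p = 0.00381). MTRR and MTHFD1 each overlap an expressed gene on the opposite strand and are uncertain. MAT2A, the enzyme that makes the donor, was chosen after its value was seen and was higher, at 656 and 591 CPM in untreated cells and 906 and 961 CPM in resistant cells (0.58, adjusted p = 0.0195). MAT2A overlaps GGCX. It was not called without any 1 of the 4 libraries (adjusted p up to 0.124). AHCY, which removes the product of methylation reactions, did not pass (−0.02, interval −0.39 to 0.34), and its sign turned with upper-quartile scaling or a stricter filter. Its relative AHCYL1 did not pass either (0.03).

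NuRD, the complex that MBD2 recruits, was lower in 6 of 14 tested genes, higher in 1 and did not pass in 7, with a median of −0.34. By comparison 17.4% of all tested genes were called lower, 16.6% higher and 34.0% either way. HDAC1, a histone deacetylase, fell from 279.6 ± 9.57 CPM to 132 ± 12.6 CPM (−1.08, adjusted p = 9.56e-04), and HDAC2, its paralog, from 185 ± 19.4 CPM to 103 ± 1.13 CPM (−0.85, adjusted p = 0.00292). ZMYND8, a chromatin reader that binds NuRD, fell by 1.32 (adjusted p = 2.93e-04), and CHD5, a remodeller subunit, by 1.22 (adjusted p = 0.00118). RBBP7, a histone-binding subunit (0.02, adjusted p = 0.931, sign turned without replicate 2 of either group, uncertain through an overlap with TXLNG), and MTA1 (0.20, adjusted p = 0.401) did not pass.

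**Figure D4:**
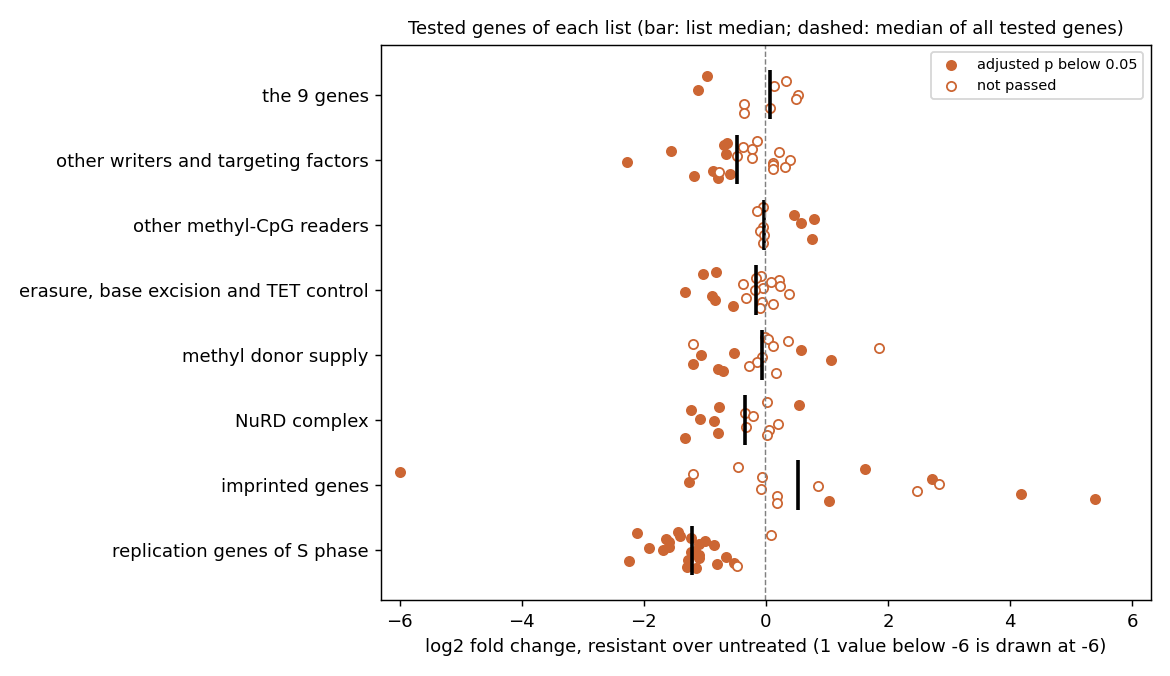
Log2 fold change of resistant over untreated libraries for the tested genes of 8 lists, filled where the adjusted p was below 0.05, with a bar at each list's median and a dashed line at the median of all tested genes (−0.01). Replication genes lie below 0 (median −1.21), the 9 genes lie around it (median 0.07), and imprinted genes spread widely (median 0.52).

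Genes that DNA methylation keeps silent outside the germline were for the most part too low to test. Of 25 germline genes 12 had 0 counts in all 4 libraries, 22 had too few counts to test (at most 12 counts in a library) and 3 were tested. PIWIL2, a germline Argonaute protein, was called higher, at 0.0812 and 0.107 CPM in untreated cells and 1.86 and 0.385 CPM in resistant cells (3.52, SE 0.87, adjusted p = 0.0118). The call of PIWIL2 ended without untreated replicate 1 (adjusted p = 0.0830) or resistant replicate 1 (2.01, adjusted p = 0.202). TEX15 (−1.33, adjusted p = 0.102) and TDRD12 (−1.82, adjusted p = 0.0885), other germline factors, did not pass, and TEX15 passed without resistant replicate 2 (−2.35, adjusted p = 0.0186) or with no filter (adjusted p = 0.0455). Of 25 cancer-testis antigens, which inhibitors of DNA methyltransferases can induce, 3 had no matching ID, 16 had 0 counts in all libraries and 21 had too few counts to test, at most 5 in a library. A count of 0 allows up to 3 counts, or 0.0801 to 0.104 CPM in a library. The antigen tested was PRAME, at 42.1 and 51.5 CPM in untreated cells and 32.5 and 34.6 CPM in resistant cells (−0.48, adjusted p = 0.0559).

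Imprinted genes, of which methylation silences 1 parental copy, were called in both directions. Of 16 tested genes 5 were higher, 2 lower and 9 did not pass, with a median of 0.52, against 16.6% higher and 17.4% lower among all tested genes. GRB10, an adaptor that restrains growth receptors, rose from 8.21 ± 0.801 to 54.1 ± 8.45 CPM, a log2 fold change of 2.72 (adjusted p = 1.22e-05). PEG10, a gene derived from a retrotransposon, stood at 4.33 and 6.92 CPM in untreated cells and 137 and 67.1 CPM in resistant cells (4.18, and 3.59 without resistant replicate 1). SGCE, a sarcoglycan next to PEG10, stood at 0.108 and 0.614 CPM in untreated cells and 17.6 and 13.0 CPM in resistant cells (5.39, and 4.65 without untreated replicate 1 or 7.08 without untreated replicate 2). PEG10 and SGCE overlap on opposite strands, so their values are uncertain. DIRAS3, a RAS-like growth inhibitor, had 386 counts over the untreated libraries and 0 over the resistant ones, at least 109-fold lower against 3 counts over the group. IGF2, a growth factor, was high in resistant replicate 1 alone (124 CPM, against 8.29 CPM in resistant replicate 2 and 4.44 and 13.9 CPM in the untreated libraries). The difference missed the threshold (2.84, adjusted p = 0.387) and was −0.12 without that library. IGF2 overlaps its antisense gene IGF2-AS and is uncertain. MEST, chosen after its values were seen, also had its high value in resistant replicate 1 (15.9 CPM, against 1.33 to 1.74 CPM in the other libraries), and overlaps COPG2. GNAS, the stimulatory G protein subunit, did not pass (−0.07, adjusted p = 0.780, above 0 without resistant replicate 2).

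The label of the line was checked against markers. KRT8 and KRT18, epithelial keratins, stood between 957 and 3091 CPM and were lower in resistant cells, while MUC1 and CLDN4 were higher and CDH1 and EPCAM were low throughout (0.622 to 2.09 CPM). KRT8 and KRT18 overlap each other and are uncertain. KRT19 did not pass (−0.50, adjusted p = 0.179), and KRT7 had too few counts to test (5 to 15 a library). The 8 immune markers summed to 22.2 and 31.3 CPM in untreated cells and 36.0 and 11.7 CPM in resistant cells, with PTPRC at no more than 5 counts. LYZ (−4.49), CD79A (−2.48) and CD14 (−1.89) were called lower, and the higher sum in resistant replicate 1 came from CD68 (33.7 CPM), which overlaps another expressed gene and did not pass (adjusted p = 0.376). Endothelial markers summed to 1.07 to 9.42 CPM and red cell markers to at most 1.66 CPM. Of the 3 endothelial markers tested 1 was called lower, as were both red cell markers tested, and 0 were higher. Among all tested genes 17.4% were called lower. A further endothelial marker, PECAM1, had no matching ID. Fibroblast markers summed to 20.6 and 20.5 CPM in untreated cells and 109 and 69.5 CPM in resistant cells, mostly from COL3A1 (2.09, adjusted p = 1.22e-04) and PDGFRB (4.86, adjusted p = 7.69e-04), with PDGFRA, DCN, LUM, FAP, THY1 and POSTN below testing. These sums are small beside KRT8 and KRT18, and their part in the results was not tested.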

How the data were processed

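Polyadenylated RNA was sequenced in 2 untreated and 2 resistant libraries, grouped by sample title. The authors deposited expected counts per gene of each library, unscaled, as the file headers show. Per the submitters' processing notes the tools were STAR 2.7.2b and RSEM 1.3.1 on GRCh37, whereas the annotation release and strand setting are not given in the sources used here. Expected counts were rounded to whole numbers. Symbols came from a gene name table, which named 39538 of 57773 IDs. GENCODE 29 (GRCh38) gave only exon lengths, gene order and overlaps.

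Genes were kept with edgeR's filterByExpr (16090), scaled by TMM (factors 0.962 to 1.05) and tested in R 4.3.3 with edgeR 4.0.16 (quasi-likelihood F-test, robust fit), with Benjamini-Hochberg adjustment over all tested genes. The SE is the log2 fold change divided by the square root of F. The test was checked on simulated data. The alternatives tried were DESeq2 1.42.0, limma-voom (limma 3.58.1), the newer form of edgeR's test, upper-quartile or RLE scaling, a stricter filter (1 CPM in 2 libraries) or none, a replicate block, a threshold of 0.01 and each library left out.

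The 9 genes and the other lists (15 in all, 237 symbols, 5 without an ID) were chosen with earlier results of these data known. Named genes were the 9, and from each list up to 4 called genes ranked by adjusted p and up to 2 others with the highest CPM, and up to 3 markers per cell type with at least 1 CPM in a library. CDCA7, ZBTB24, TDG, MAT2A, MEST, CDH1, EPCAM, MUC1, KRT19, KRT7, CD79A and the fibroblast and immune markers below testing were added after their values were seen. An overlap with another expressed gene is named beside the gene's values, which are then uncertain. One gene that the rule would name is not reported here.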

Additional observations from a re-analysis of the deposited data

How the results depend on the processing

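DNMT1 and HELLS were called lower under each of the 13 alternatives, with log2 fold changes of −1.12 to −0.80 and −1.33 to −0.91 when 1 library was left out. Of the 117 single-gene alternatives for the 9 genes, 113 kept direction and side of the threshold, 1 newly passed (TET2, given in the report) and 3 turned sign (DNMT3B and TET3, none of them called). With 1 library left out, log2 fold changes ran from −0.04 to 0.31 in DNMT3B, −0.04 to 0.18 in TET3, −0.40 to 0.15 in MBD3, −0.19 to 0.15 in ZBTB38, −0.14 to 0.11 in AHCY, −0.05 to 0.13 in AHCYL1, −0.06 to 0.11 in RBBP7, −0.11 to 0.36 in TDG, −0.20 to 0.06 in GNAS, −0.02 to 0.18 in CDT1, −0.12 to 3.88 in IGF2 and −0.20 to 3.36 in MEST. AHCY was at 0.00 with upper-quartile scaling and 0.01 with a stricter filter. The number of called genes, 5463, was 2832 to 5041 with 1 library left out (1510 to 2548 higher, 1322 to 2493 lower), with the lowest counts without untreated replicate 1. At a threshold of 0.01 it was 2832 as well, with 1444 higher and 1388 lower. The 65 calls in the other pathway lists became 43 at that threshold and 42 to 65 with 1 library left out, and the cause was not tested. No scaling moved the median of all genes by over 0.1. With a replicate block 5275 genes were called. Deviations of same-numbered libraries correlated at −0.0604 across genes. With a single difference per group, this value cannot show whether same-numbered libraries were prepared together. The block changed no call among the 9 genes but ended that of MBD4 and added NSD1. Family shares with the longest transcript as length gave DNMT1 90.6% in untreated and 81.3% in resistant libraries. The median of the neighbours of DNMT1 was 0.76 with 5 genes on either side. TET1 and MBD2 had the lowest counts of the 9 genes, at most 243 a library.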
